A study of Mus musculus with 8 samples.

Results

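EpH4-only regions are stretches of open chromatin that were found in every library of EpH4 mouse mammary gland epithelial cells and in no library of EpRas cells, the H-Ras-transformed line made from them. They were selected on the measured peaks themselves. The peaks of 8 libraries were merged where they shared at least 1 bp, and a region was kept when all 4 EpH4 libraries and none of the 4 EpRas libraries had a peak in it. Of 37230 merged regions, 280 met this rule (0.752%), and 736 met the opposite rule and were called EpRas-only (1.98%). These counts are what the rule fixed and were not tested. The number depends on single lists, and 469 regions met the rule when the second TGF-β-treated EpH4 library was left out.

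Accessible chromatin was mapped by FAIRE-seq, in which formaldehyde-fixed chromatin is sheared and the DNA that is left free of protein by phenol/chloroform extraction is sequenced. EpH4 and EpRas cells were each left untreated or given 1 ng/ml TGF-β3 for 8 days, with 2 libraries in each of these 4 groups. EpH4 cells, labelled as without active H-Ras, were grown in 10% fetal bovine serum and EpRas cells, labelled as expressing it, in 4%, so that transformation and serum cannot be told apart. A single transformed line stood against a single parent line. The study's methods call the 2 libraries of a group biological replicates. Errors given over libraries cover the spread between these libraries only, and the SD of a line takes in its treated and untreated libraries alike. Intervals on shares of regions cover counting error and no spread between libraries.

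Epithelial cells are held together by junctions built on E-cadherin, and their identity is kept by enhancers that bind grainyhead-like (GRHL), TEAD and AP1 factors among others. During epithelial-mesenchymal transition (EMT), zinc finger repressors of the SNAI and ZEB families bind the E-box CACCTG in the promoters of epithelial genes, of which Cdh1, encoding E-cadherin, is the best known. Ras transformation prepares EpH4 cells for this transition under TGF-β.

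The lists held 10821 to 17927 peaks in EpH4 and 13784 to 27337 in EpRas libraries, and the number of reads behind them was unknown. A region without a peak is therefore a region that missed the authors' limit, not one shown to be closed. Promoters of 6 to 8 of 12 mammary epithelial marker genes had a peak in each EpH4 library, against 0 to 5 in each EpRas library. The promoter of 1 of the 12, Cdh1, is itself an EpH4-only region. The rule thus fixed its peak in all 4 EpH4 and 0 EpRas libraries, which widens the gap between these counts. Krt7 alone had a promoter peak in more EpRas libraries (2) than EpH4 libraries (1). Epcam and Krt19 had none in any of the 8 libraries. Among markers of other cells, 0 of 6 endothelial promoters had a peak in any library, at most 1 of 8 immune promoters had one, and fibroblast promoters had 1 to 3 of 8 peaks per library. Of the basal or myoepithelial markers, Krt14 alone had a promoter peak, in all 8 libraries.

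**Figure D1:**
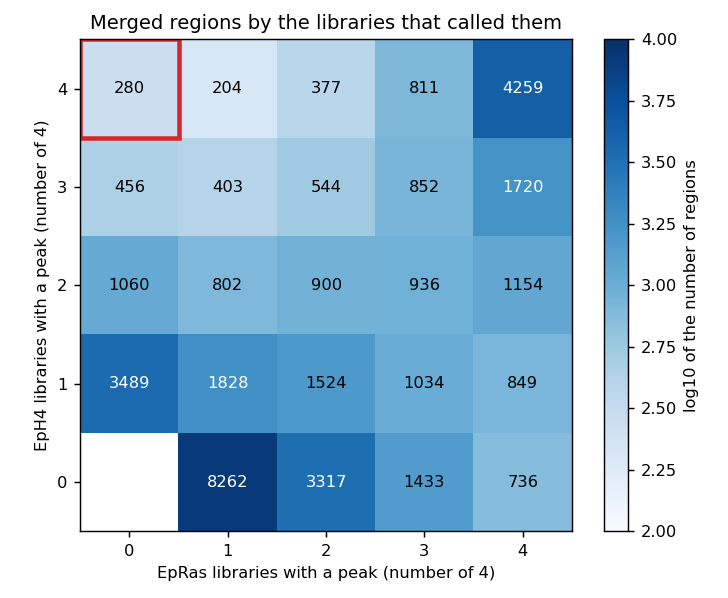
Number of merged regions by how many of the 4 EpH4 libraries (vertical axis) and of the 4 EpRas libraries (horizontal axis) had a peak in them, with colour giving log10 of the number. The outlined field holds the 280 EpH4-only regions; 4259 regions were called in all 8 libraries.

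EpH4-only regions were of middle rank among the peaks of their own libraries. The deposited score of each peak has no stated unit, so it was turned into a percentile within its list. Members had a median percentile of 49.2 and 55.7 in the untreated EpH4 libraries and of 58.9 and 46.6 in the TGF-β-treated ones. The 5651 other regions called in all 4 EpH4 libraries and in at least 1 EpRas library had medians of 68.5, 69.4, 77.6 and 64.6 in the same libraries. Members thus lay lower than these regions in 4 of 4 libraries, and this is a description, since presence and score come from the same peaks. Median width was 354 bp for members and 403 bp for the others.

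**Figure D2:**
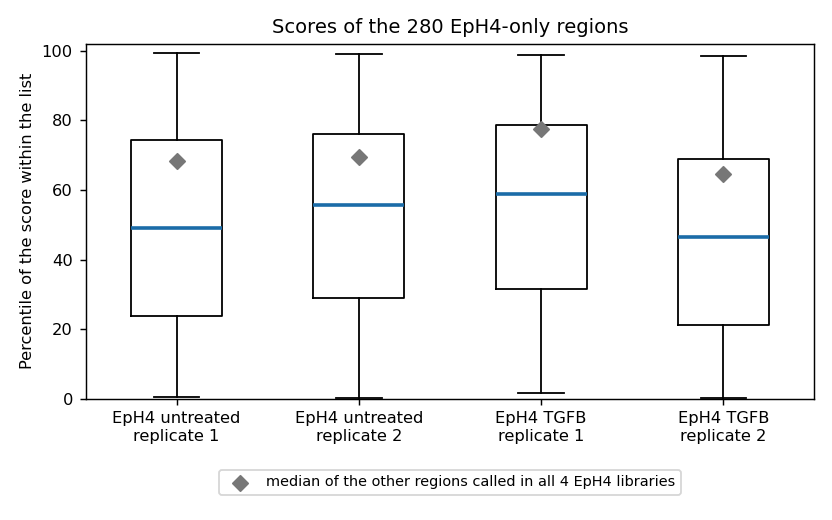
Percentile of the deposited score within each EpH4 list for the 280 EpH4-only regions, 1 box per library (line: median, box: quartiles, whiskers: lowest and highest). Diamonds give the median of the other regions called in all 4 EpH4 libraries, which lay above the members' median in each library.

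Regions just outside the rule show how near it lies to single lists. A peak in 1 EpRas library only excluded 204 regions that were called in all 4 EpH4 libraries. The first TGF-β-treated EpRas library, which has the longest list, accounted for 123 of them, and their median percentile in that list was 32.8. A missing peak in 1 EpH4 library left out another 456 regions without any EpRas peak. The second TGF-β-treated EpH4 library, with the shortest list, was the missing one for 189 of these.

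The Cdh1 locus carried 2 EpH4-only regions, one at the promoter and one in an intron. Positions here and below refer to GRCm38 (mm10), and sequences are of the plus strand. In the following sequences, shown because this locus is the textbook target of E-box repressors, capitals mark matches on either strand to CACCTG (read as CAGGTG on the other strand), to the GRHL motif AACCNGTT and to the AP1 motif TGACTCA or TGAGTCA. Only the part of the promoter region before the start site is given.
Cdh1 promoter, chr8:106603128-106603350: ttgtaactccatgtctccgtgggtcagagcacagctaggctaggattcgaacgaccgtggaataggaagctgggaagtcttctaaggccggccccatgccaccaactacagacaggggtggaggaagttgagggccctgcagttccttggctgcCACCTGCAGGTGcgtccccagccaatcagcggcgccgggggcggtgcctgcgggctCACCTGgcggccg
Cdh1 intron, chr8:106616036-106616334: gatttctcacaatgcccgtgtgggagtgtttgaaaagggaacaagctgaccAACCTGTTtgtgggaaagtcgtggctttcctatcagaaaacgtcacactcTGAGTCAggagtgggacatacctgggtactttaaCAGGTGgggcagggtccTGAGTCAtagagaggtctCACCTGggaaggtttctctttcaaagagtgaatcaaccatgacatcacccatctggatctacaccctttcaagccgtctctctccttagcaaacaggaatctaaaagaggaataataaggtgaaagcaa
The promoter region covered chr8:106603128-106603430 around the start site of Cdh1 at position 106603351. Its scores were 16.1 and 14.1 in the untreated and 16.5 and 12.5 in the TGF-β-treated EpH4 libraries. Its nearest EpRas peak was 16.2 kb away. In the 500 bp around its midpoint stood 3 CACCTG matches, all before the start site, of which 2 lie back to back on opposite strands. The intronic region, chr8:106616036-106616334, lay 12.8 kb after the start site and had scores of 10.9 and 17.7 in the untreated and 20.9 and 17.8 in the TGF-β-treated libraries. It held 2 CACCTG, 2 AP1 and 1 GRHL match. The Cdh1 locus also held 1 EpRas-only region, 3.31 kb from the intronic member, and none of its 7 regions was called in all 8 libraries.

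E-boxes of this form were found at EpH4-only regions across the genome. Motif matches were counted on both strands in the 500 bp around the midpoint of distal regions, those with their midpoint more than 2 kb from every annotated transcription start site. CACCTG was present in 116 of 222 distal members, a share of 52.3% (Wilson 95% interval 45.7 to 58.7, counting error only). The share was 29.2% (28.6 to 29.7) of all 25424 distal regions and 30.9% (29.3 to 32.5) of the 3063 distal regions called in all 4 EpH4 and at least 1 EpRas library. In the 570 distal EpRas-only regions it was 19.5% (16.4 to 22.9). The interval of the members overlapped none of those of these 3 sets. A match describes the sequence only and does not show that a factor binds. At least 2 matches were present in 20.7% of distal members (15.9 to 26.5) and in 5.67% of all distal regions (5.39 to 5.96).

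The following windows of 121 bp, each centred on a CACCTG match, come from the distal members with the highest mean percentile that hold one, apart from the member near Serbp1, whose window follows with the GRHL matches. They are shown to let the motif be read in its setting, with capitals as above.
Vsig10 intron, chr5:117330572-117330692: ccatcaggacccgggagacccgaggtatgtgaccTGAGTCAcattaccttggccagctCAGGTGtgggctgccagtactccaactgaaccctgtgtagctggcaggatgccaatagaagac
Cwc27 intron, chr13:104742917-104743037: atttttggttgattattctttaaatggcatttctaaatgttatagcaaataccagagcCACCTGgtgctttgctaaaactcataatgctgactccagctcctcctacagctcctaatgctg
Nearest gene Cox18, chr5:90167357-90167477: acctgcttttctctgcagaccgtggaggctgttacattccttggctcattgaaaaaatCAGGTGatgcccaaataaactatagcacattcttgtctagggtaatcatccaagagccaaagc
Rassf8 intron, chr6:145770375-145770495: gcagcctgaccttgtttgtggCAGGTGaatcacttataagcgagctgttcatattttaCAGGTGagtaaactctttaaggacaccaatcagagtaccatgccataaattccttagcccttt
The Vsig10 region had the highest mean percentile of all 280 members, 96.9, with scores of 47.6 and 37.3 in the untreated and 28.2 and 30.7 in the TGF-β-treated EpH4 libraries. It holds an AP1 match beside its E-box. Members near Cwc27, Cox18 and Rassf8 had mean percentiles of 94.1, 92.7 and 88.0, and the Rassf8 region, in a gene of the Ras association domain family, carries 2 E-boxes. The largest number of CACCTG matches in 1 window was 5, in a Trim71 intron, a member picked here for that count.

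Other readings of the same sequences, by differences in percentage points, also put this E-box first. They were chosen after the shares above had been seen and use the same regions, so they are not separate evidence. Among the 10 forms of CANNTG, the next most raised in members was CAGCTG, with 30.2% against 26.6% of all distal regions, and the most lowered was CATATG, with 4.50% against 10.2%. Without any fixed motif, all 2080 words of 6 bases were ranked by the difference between distal members and all distal regions. CACCTG came first, with a difference of 23.1 percentage points, and it was first too against the regions called in all 4 EpH4 and at least 1 EpRas library, with 21.4. The next were ACCTGG with a difference of 19.8 from all distal regions, CAGGTA with 19.0 and ACCTGC with 17.9, which all share the bases ACCTG or their complement. CAGGTA, which is not a form of CANNTG, was in 37.4% of distal members and 18.4% of all distal regions. In proportion, this rise was larger than that of CACCTG. At the other end stood A- and T-rich words, led by TTAAAA at −18.0.

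Base composition and peak score were checked next, because members had slightly more G and C (49.0% ± 5.36 SD over distal members, 45.7% ± 6.72 over all distal regions). All distal regions were cut into 4 bands of about equal number by G and C content, and in each the E-box share of members was above that of the band. From the lowest to the highest band it was 30.8%, 41.5%, 47.9% and 62.9% of 13, 41, 71 and 97 members, against 16.4%, 25.5%, 32.6% and 41.6% of all distal regions. In the lowest band the members' interval, 12.7 to 57.6%, included the share of all regions. When the regions called in all 4 EpH4 libraries were cut into 3 bands by mean percentile, members held E-boxes in 71 of 134, 31 of 63 and 14 of 25 distal regions from the lowest to the highest band (49.2% in the middle and 56.0% in the highest), and the others in 30.5%, 31.9% and 30.2%. The members' share was thus above that of the others at each height of score.

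Among the regions called in all 4 EpH4 libraries, the E-box share was lower the more EpRas libraries also called them. From 52.3% with 0 EpRas libraries it went to 41.7% (34.2 to 49.5, 156 distal regions) with 1, 37.8% with 2, 33.7% with 3 and 28.6% (26.7 to 30.5) with all 4. The AP1 share was 44.1% (37.8 to 50.7), 46.2%, 55.9%, 52.3% and 57.5% (55.4 to 59.6) in the same order, higher at the end than at the start but not at every step. Regions with 3 EpH4 libraries and 0 EpRas libraries, which the rule left out, had an E-box share of 46.3% (41.1 to 51.5, 350 distal regions).

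**Figure D3:**
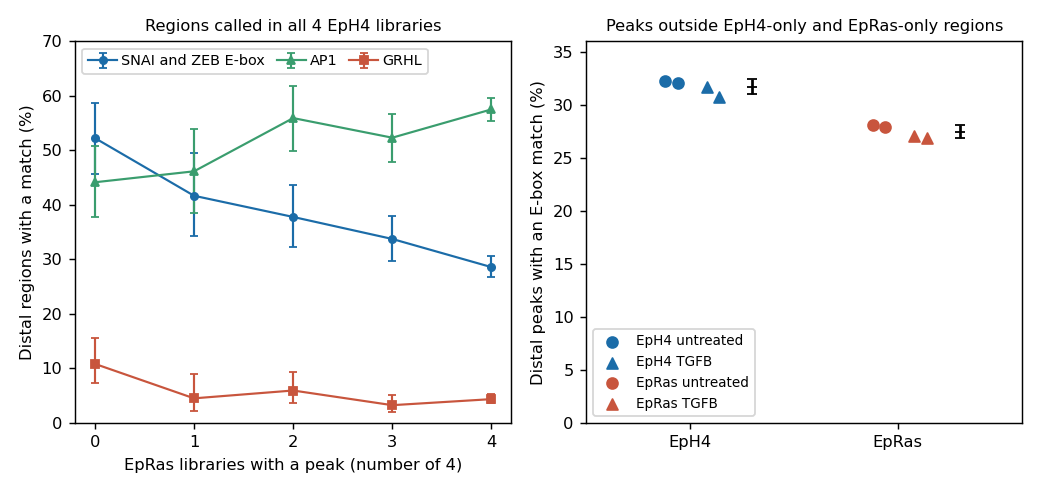
Left, share of distal regions with a CACCTG E-box, AP1 or GRHL match by the number of EpRas libraries with a peak, among regions called in all 4 EpH4 libraries (bars: 95% Wilson interval); the E-box share is 52.3% at 0 and 28.6% at 4. Right, share of each library's distal peaks with a CACCTG match outside EpH4-only and EpRas-only regions (points: libraries, bars: mean ± SD), where the 4 EpH4 libraries sit above the 4 EpRas libraries.

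The lines were also compared for E-boxes by a test on the distal peaks of each library after removal of EpH4-only and EpRas-only regions. This test was added after the members' shares had been seen. CACCTG was found in 32.3% and 32.1% of such peaks in the untreated and 31.7% and 30.7% in the TGF-β-treated EpH4 libraries. EpRas libraries had 28.1% and 27.9% untreated and 27.1% and 26.9% with TGF-β. The lines did not overlap, and within each line both treated libraries lay below both untreated ones, a contrast of 2 against 2 that cannot give p under 0.333. The line means were 31.7% ± 0.694 and 27.5% ± 0.599 (SD, n = 4 each), a difference of 4.23 percentage points (p = 0.0286 in a two-sided exact permutation test, the lowest value reachable with 4 against 4). The permutation exchanged libraries without keeping treated and untreated ones apart, although their shares differed, so this p leaves treatment out of account. Adjusted over the 17 motifs scanned, p was 0.0694 by the same exact test, which missed the threshold of 0.05. A motif at the lowest reachable p could pass only if more of the 17 had reached it too, however large its own difference. The adjusted p therefore cannot decide whether the lines differ. Regions called in 1 line only, but not in all of its libraries, stayed among the tested peaks. They included 456 regions with 3 EpH4 and 0 EpRas libraries and 1433 with 0 EpH4 and 3 EpRas libraries. The test therefore does not stand apart from the pattern that the rule selected.

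Matches to the GRHL motif were fewer, and their share in members was again above that of the other sets. AACCNGTT was present in 24 of 222 distal members, 10.8% (7.37 to 15.6), against 4.15% (3.92 to 4.41) of all distal regions, 4.31% (3.65 to 5.09) of the distal regions called in all 4 EpH4 and at least 1 EpRas library and 3.68% (2.42 to 5.57) of distal EpRas-only regions. Of the 24, 9 also held CACCTG. Under a stricter score limit the share was 5.41%, 2 of 37 distal regions, with an interval that reached up to 17.7% and included the share of all distal regions. Regions with 3 EpH4 and 0 EpRas libraries had GRHL matches in 8.86% (6.31 to 12.3). After removal of EpH4-only and EpRas-only regions, the share per library was 4.51% ± 0.161 in EpH4 and 3.67% ± 0.178 in EpRas (SD, n = 4 each). It was higher in 4 of 4 EpH4 libraries than in any EpRas library (exact permutation test, two-sided, p = 0.0286, adjusted over the 17 motifs 0.0694). The limits given for the E-box test hold here too. In the band with the most G and C, however, members (4.12% of 97) and all regions (3.59%) had like shares. Grainyhead-like proteins are known as activators of junction genes, Cdh1 and Cldn4 among them.

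The 4 distal members with a GRHL match and the highest mean percentile are given below as windows of 121 bp centred on the match, to show which form of AACCNGTT they carry. Capitals are as above.
Nearest gene Serbp1, chr6:67170293-67170413: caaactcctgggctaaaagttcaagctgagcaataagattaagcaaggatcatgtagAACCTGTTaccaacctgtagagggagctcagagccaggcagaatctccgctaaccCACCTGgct
Nearest gene Ldb1, chr19:46025091-46025211: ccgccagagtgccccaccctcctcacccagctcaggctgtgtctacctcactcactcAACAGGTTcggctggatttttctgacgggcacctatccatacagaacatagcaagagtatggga
Nearest gene Lnx1, chr5:74738368-74738488: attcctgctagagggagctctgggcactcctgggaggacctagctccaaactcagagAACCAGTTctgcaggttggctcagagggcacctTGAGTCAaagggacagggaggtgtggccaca
Nearest gene Gspt1, chr16:11263388-11263508: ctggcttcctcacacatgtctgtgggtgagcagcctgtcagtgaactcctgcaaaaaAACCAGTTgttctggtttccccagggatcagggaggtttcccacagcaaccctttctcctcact
Their mean percentiles, in the order shown, were 89.7, 88.0, 78.4 and 75.4. All 4 regions are intergenic. Near Serbp1, scores were 24.4 and 20.9 in the untreated and 27.0 and 22.2 in the TGF-β-treated EpH4 libraries. Its window has a CACCTG match beside the GRHL one, and the Lnx1 window an AP1 match.

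Matches of both motifs were denser at the centre of members, more sharply for GRHL than for CACCTG. GRHL matches of distal members numbered 20 in the central 200 bp and 5 in the flanking 300 bp, so that per base they were 6-fold denser at the centre. In the regions called in all 4 EpH4 and at least 1 EpRas library the same ratio was 1.15, and in EpRas-only regions, with 4 central and 17 flanking matches, it was 0.353. CACCTG was 1.80-fold denser at the centre of members (97 and 81 matches), 1.07-fold in the other regions of EpH4 cells and 0.777-fold in EpRas-only regions. In members, however, 24 CACCTG matches lay from −200 to −150 bp, as many as from 0 to 50 bp. AP1 was central in all sets, with 5.11-fold in members and 7.18-fold in EpRas-only regions. TEAD was denser at the centre too, 3.05-fold in members, 2.60-fold in the other regions of EpH4 cells and 1.88-fold in EpRas-only regions. These ratios are counts over regions and were not tested.

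**Figure D4:**
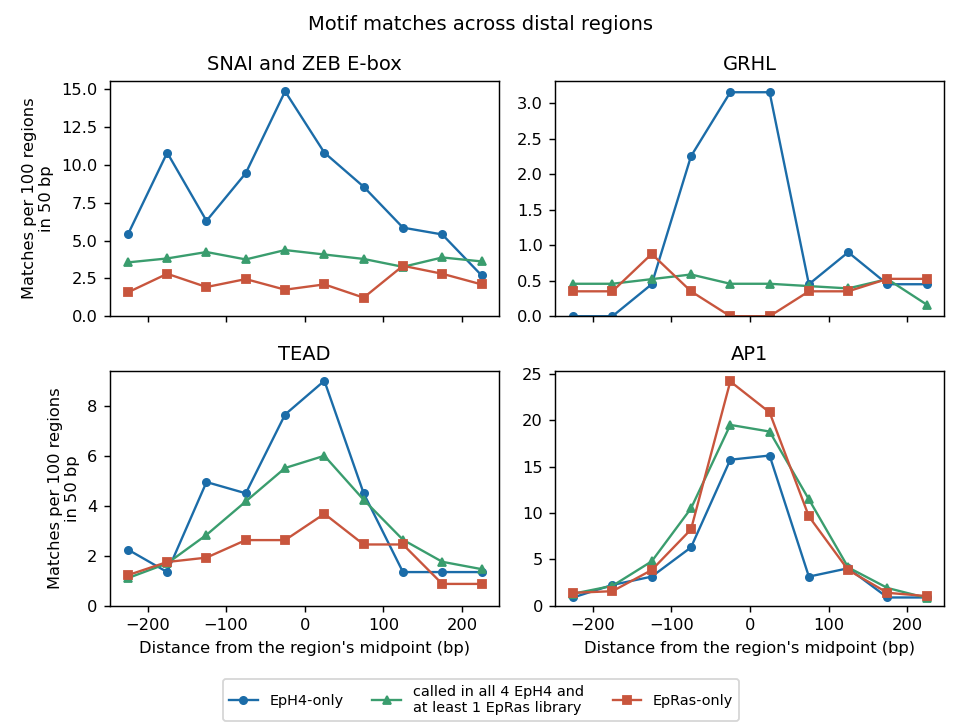
Matches per 100 distal regions in bins of 50 bp by distance from the region's midpoint, for 4 motifs in EpH4-only regions, in regions called in all 4 EpH4 and at least 1 EpRas library, and in EpRas-only regions. GRHL matches pile up at the centre of EpH4-only regions. E-box matches there are highest from −50 to 0 bp (14.9 per 100) but also reach 10.8 per 100 from −200 to −150 bp. AP1 and TEAD matches are denser at the centre in each set.

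Of the other motifs, TEAD and the NF1 motif TTGGCA had higher shares in members than in all distal regions. The TEAD motif (ACATTCC or GCATTCC), read by the effectors of the Hippo pathway, was found in 31.5% of distal members (25.8 to 37.9), 20.1% of all distal regions and 17.9% of EpRas-only regions, but in 26.4% of the regions called in all 4 EpH4 and at least 1 EpRas library. TTGGCA was in 45.5% of members (39.1 to 52.1), 32.9% of all distal regions and 36.6% (34.9 to 38.3) of the regions called in all 4 EpH4 and at least 1 EpRas library. In the 156 distal regions called in all 4 EpH4 and 1 EpRas library, TEAD was in 30.1% (23.5 to 37.7) and TTGGCA in 44.2% (36.7 to 52.1). Those shares lay inside the members' intervals. AP1 motifs, bound by Fos and Jun proteins, were in 44.1% of members, 46.7% of all distal regions and 59.6% (55.6 to 63.6) of EpRas-only regions. The forkhead motif TGTTTAC was in 5.86% (3.45 to 9.76) of members, an interval that included its shares of 7.95% in all distal regions and 6.95% in the other regions of EpH4 cells, whereas EpRas-only regions had 12.6% (10.2 to 15.6). The insulator motif of CTCF was in 1 of 222 distal members, 0.45% (0.0796 to 2.51), against 5.88% of all distal regions. In the other regions of EpH4 cells it was in 1.40%, a share inside the members' interval. For CRE, ETS, RUNX, the full NF1 palindrome, CEBP, the p53 family, STAT, SP and KLF, and SOX, the members' interval included the share of all distal regions. GATA, at 17.6% (13.1 to 23.1), lay just below its share of 23.1% in all distal regions, while the other regions of EpH4 cells had 17.8%. Over each library's distal peaks without EpH4-only and EpRas-only regions, 7 of the 17 motifs had p = 0.0286 by the exact permutation test, and 0 passed 0.05 after adjustment. As above, a motif at this lowest p could pass only if more motifs had reached it, so the adjustment cannot decide. Of these 7, CACCTG, GRHL, TEAD, CEBP and the p53 family had higher shares in EpH4, and ETS and forkhead had lower ones.

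**Figure D5:**
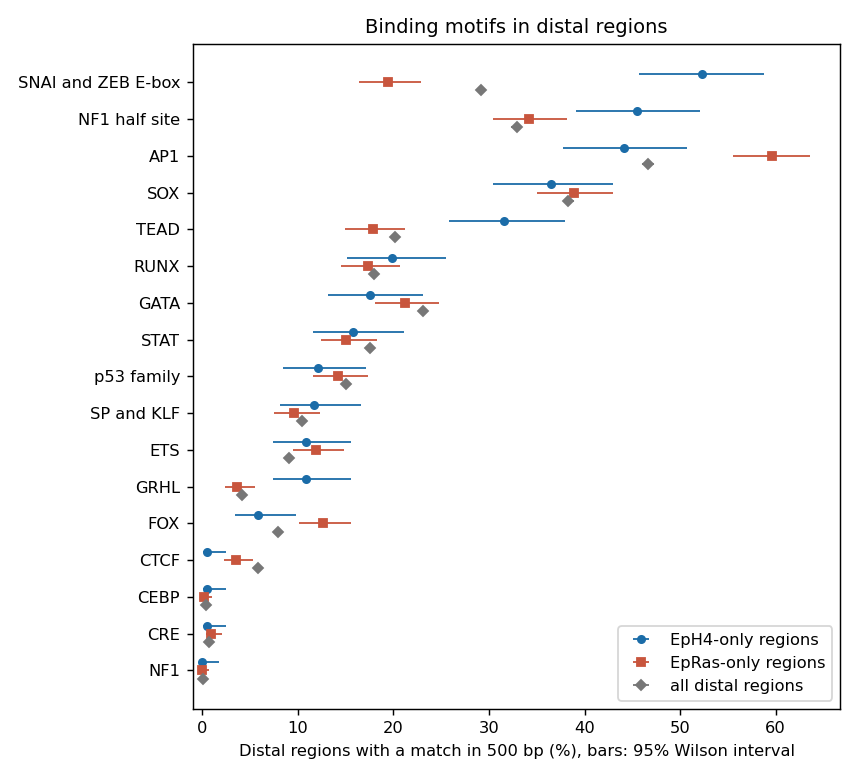
Share of distal regions with at least 1 match in 500 bp for each of 17 motifs, in EpH4-only, EpRas-only and all distal regions (bars: 95% Wilson interval, counting error only). The CACCTG E-box, TEAD and GRHL lie to the right in EpH4-only regions, AP1 and forkhead to the left of EpRas-only regions.

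Most members lay away from promoters. A start site lay within 2 kb of 58 of 280 members, 20.7% (16.4 to 25.8), compared with 31.7% of all regions, 22.6% of EpRas-only regions and 49.7% of the regions called in all 8 libraries. The other 222 comprised 106 in introns, 108 between genes, 3 in coding exons, 1 in an untranslated region and 4 in other exons. Their median distance to a start site was 14.5 kb. Of the 58 promoter members, 36 were at a protein-coding gene and 22 only at another kind of transcript. These promoters held few CpG, with a median observed to expected ratio of 0.301 against 0.697 for all promoter regions. The ratio was also low in promoter regions just outside the rule, 0.380 with 4 EpH4 and 1 EpRas library and 0.441 with 3 EpH4 and 0 EpRas libraries. Promoter members held CACCTG in 48.3% (35.9 to 60.8) and GRHL matches in 12.1% (5.97 to 22.9), against 29.0% and 3.31% of all promoter regions. AP1 matches were in 36.2% of promoter members (25.1 to 49.1) and 16.1% of all promoter regions, and ETS matches in 15.5% (8.38 to 26.9) and 31.6%.

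The promoter members with the highest mean percentiles were at Rhpn1, Rbbp8nl and Fndc11. The region at Rhpn1, chr15:75704050-75704371, had scores of 20.2 and 19.7 in the untreated and 35.2 and 27.9 in the TGF-β-treated EpH4 libraries. The mean percentile was 89.5 at Rhpn1, 85.9 at Rbbp8nl and 84.3 at Fndc11. Next came the promoters of the pseudogene Gm17813 inside Prim2, of the dynein heavy chain gene Dnah6, of the ubiquitin ligase gene Lnx1, of Aph1c, a subunit of gamma-secretase, of Creb5, of the drug transporter gene Abcb1b and of Gm37535, with mean percentiles from 71.9 to 84.1. Distal members of the highest rank that were not yet named were near Adgrl2, with 87.2, in an intron of Cnnm4, with 85.9, and near the choline kinase gene Chka, with 82.3.

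By gene locus, defined as the annotated span with 20 kb on each side, 279 of 21924 protein-coding loci held an EpH4-only region (1.27%) and 756 an EpRas-only region (3.45%). The gene lists below were described by counts alone. A locus can hold a member only where a region was called in all 4 EpH4 libraries, which was so for 6384 of the 21924. The lists differed in this, with 15 of 26 junction and polarity genes, 4 of 9 keratins and 2 of 20 mammary hormone and milk genes. Of 26 genes of epithelial junctions and polarity, 3 held members, namely Cdh1 and Cldn3 with 2 each and Dsp, encoding desmoplakin, with 1. Both Cldn3 members lay 15.3 and 16.1 kb after the start of this claudin gene, at the start of the noncoding Wbscr25 transcript, and both had a GRHL match. The Dsp region lay 6.13 kb before the gene. In the same list Cdh1, Crb3 and Pard3, of which Crb3 and Pard3 are polarity genes, held an EpRas-only region.

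Of 20 epithelial transcription factor and splicing genes, 1 held members. Trp63, the p53 relative that directs basal epithelium, had 2 intronic ones with mean percentiles of 48.2 and 36.5, of which the first lay 21.8 kb from the nearest start site and held a GRHL and 2 TEAD matches. Notch and Hippo genes held members at 3 of 21 loci. These were Notch2, in an intron with scores of 22.6, 21.1, 23.9 and 11.2 in the untreated and then the treated libraries, Lats2, a kinase of the Hippo pathway, with 3 E-boxes, and Heyl, whose locus reached a coding exon of Nt5c1a. Ras and MAPK genes held them at 2 of 29 loci, Spry1, an inhibitor of Ras signaling, and Egfr, and EpRas-only regions also at 2, Spry1 and Spred2. Spry1 had scores of 21.3, 13.7, 31.2 and 10.2 in that order, and Egfr of 7.43, 14.3, 10.9 and 8.52.

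Among 26 TGF-β and BMP genes only Smad3, a mediator of TGF-β signaling, held a member, with a low mean percentile of 14.1 and 2 E-boxes. Of 32 AP1, ETS, RUNX, NFI and CEBP genes, Atf3 and Ets2 did, and the Ets2 region 19.6 kb before the gene held 2 AP1 and 2 E-box matches. Lrp5, a Wnt co-receptor, was 1 of 27 Wnt genes, and its intronic region had a mean percentile of 78.1 and an EpRas peak 1.54 kb away. Interferon, chemokine and cytokine genes held members at 3 of 25 loci, Ccl5, Tnf and Stat2, the last being a region at the promoter of Il23a next to it. Of 20 integrin and laminin genes, Lama5 did, through a region at the promoter of the neighbouring Adrm1. In these lists EpRas-only regions were at 1 TGF-β and BMP, 4 AP1, ETS, RUNX, NFI and CEBP, 1 Wnt, 1 Notch and Hippo, 0 interferon, chemokine and cytokine and 0 integrin and laminin loci. No member lay at a locus of 9 keratins, 20 mammary hormone and milk genes, 13 EMT transcription factors, 20 mesenchymal and matrix genes, 21 genes of the cell cycle and p53 pathway or 10 housekeeping genes. With members at 1.27% of all protein-coding loci, a list of this size would mostly hold none, so these absences say little about the lists.

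In 14 loci there were 2 or more members. Gm20388, a gene model that spans several other genes, had 4, which lay far apart and nearest to Piezo1, Urb2, Gse1 and Irf8. Pairs close together were found 3.18 kb before the start of Akna and 2.12 kb after it, where the first region has 4 E-boxes and the locus of Whrn shares both. Near Atoh8, a basic helix-loop-helix factor, regions 396 bp apart held 3 and 1 E-boxes. Abhd11 shared the Cldn3 pair, the Hsf2bp pair lay 341 bp apart, and the Ube3b pair 214 bp apart in introns. Sox5, a gene of the Sox family, had 2 intronic members. Anapc7, Creb5 and Plcg2 had an intronic member each beside 1 outside the gene or at its promoter.

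Most members had an EpRas peak in their surroundings. The median gap from a member to the nearest EpRas peak was 11.2 kb, with 46.1% of members within 10 kb of one and 93.6% within 100 kb. The other regions called in all 4 EpH4 libraries were measured to the nearest other merged region with an EpRas peak, with a median of 9.55 kb, 51.2% within 10 kb and 96.0% within 100 kb. The members' median was 19.2 kb with lists of equal length and 24.4 kb with the stricter score limit. The farthest was an intron of Robo1, a receptor of axon guidance, 780.1 kb from any EpRas peak, with a mean percentile of 76.5. It was followed by the promoter of the ephrin receptor gene Epha7 at 388 kb, and regions in Dlgap2 and near Sox11 lay 214 and 202 kb away. Another member lay within 50 kb of 10.7% of members, while 4.57% of the other regions called in all 4 EpH4 libraries had a member that near. The nearest protein-coding gene had a promoter peak in at least 1 EpRas library for 117 of 222 distal members, 52.7% (46.1 to 59.2), and for 54.5% (52.7 to 56.2) of the other distal regions of EpH4 cells. A nearest promoter that was itself called in all 4 EpH4 and no EpRas library was found for 1 distal member (0.45%) and for 0.196% of the other distal regions. More EpH4 than EpRas libraries called the nearest promoter for 35 distal members, 15.8% (11.6 to 21.1). The share was 11.8% (10.7 to 13.0) of the other distal regions and 7.02% (5.20 to 9.41) of distal EpRas-only regions. The opposite, fewer EpH4 than EpRas libraries, was more frequent in each set. It held for 45 distal members, 20.3%, for 26.5% of the other distal regions and for 30.5% of distal EpRas-only regions.

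The effect of TGF-β on scores was examined within EpH4 cells over all 5931 regions called in the 4 EpH4 libraries. Since each of these regions had a peak in both untreated and both treated libraries, regions that gained or lost a peak with TGF-β were not among them, and the values below bear only on differences in score where a peak was present throughout. With limma on log2 scores and Benjamini-Hochberg adjustment, 0 regions passed 0.05 (0.0%), and among the 280 members 0 did. At an unadjusted p under 0.05 there were 338 regions and 17 members, 6 of these higher with TGF-β. The median log2 difference, treated minus untreated, was −0.054 over members (quartiles −0.30 and 0.16) and −0.0099 over the others. The member with the lowest p, chosen here for it, lay 15.8 kb inside Pacs1 and within 2 kb of the start of another transcript. It had centred log2 scores of 4.11 and 4.39 untreated and 3.13 and 3.00 treated, a difference of −1.18 ± 0.37 (SE; limma adjusted p = 0.508). In simulated scores of this design, 20% of changes of 1 on the log2 scale and 95% of changes of 2 were found, so that a change of the smaller size was mostly not detectable here.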

How the data were processed

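Chromatin of EpH4 and EpRas cells was profiled by FAIRE-seq in 8 libraries. Per the labels and the study's methods, the authors aligned reads to mm10 with Bowtie2, called peaks in each library with MACS2 2.0.9 and deposited 1 peak list per library, without pooling. The deposited score of each peak has no stated unit, and read depth was unknown.

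Peaks were merged where they shared at least 1 bp. Start sites were taken from the GENCODE vM21 basic annotation and sequences from the RefSeq copy of GRCm38.p6. A promoter region had its midpoint within 2 kb of a start site. Motifs were counted on both strands in 500 bp. Shares carry Wilson 95% intervals, which cover counting error only and treat regions as independent. TGF-β was tested with limma 3.58.1 in R 4.3.3 on centred log2 scores of the 4 EpH4 libraries, with Benjamini-Hochberg adjustment, after the procedure had been tested on simulated data. For shares per library, lines were set against each other by exact permutation of all 70 assignments, without keeping TGF-β-treated and untreated libraries apart. Other steps used Python 3.11.15, pandas 2.3.3, scipy 1.17.1 and pysam 0.24.0.

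Named regions were the 15 members and the 10 promoter members of highest mean percentile, members at the listed genes, loci with at least 2 members (10 by rule, of 14 since 13 were tied at 2), regions that passed the TGF-β test and the 5 members farthest from an EpRas peak. A member of these last is not reported here. The members and gene lists were chosen with earlier results of these data known. The emphasis on E-box and GRHL motifs, the word ranking, the bands of score and of base composition, the promoter motifs and the test over libraries were chosen after seeing the data. Alternatives comprised list length, score limit, merging, promoter distance, motif window, normalization, the replicate block and leaving out each library.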

Additional observations from a re-analysis of the deposited data

How the results depend on the processing

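The number of EpH4-only regions moved from 280 to 50 under a score limit set at the pooled median of 15.5, with 23 of the 50 overlapping the original regions, and ranged from 292 to 469 when 1 library was left out, with 469 without the second TGF-β-treated EpH4 library. With lists cut to the shortest, 10821 peaks, there were 386 regions, of which 168 overlapped the original ones. The promoter share was 26.0% with the stricter score limit, 16.1% with a promoter distance of 1 kb and 20.2 to 22.3% when 1 library was left out. The AP1 share was 51.0% with lists of equal length, 36.5% in 200 bp windows and 41.6 to 46.5% without 1 library. The E-box share was 43.9%, 36.5% and 48.0 to 52.7% in the same order, and in 200 bp windows all distal regions had 41.2% for AP1 and 13.2% for the E-box. The GRHL share was 5.41% (2 of 37) with the stricter limit. The median distance to an EpRas peak was 19.2 kb with equal lists, 24.4 kb with the stricter limit and 10.9 to 15.2 kb without 1 library, the highest being without the first TGF-β-treated EpRas library. The differences between lines in E-box and GRHL shares per library stayed within 4.01 to 4.55 and 0.662 to 0.898 percentage points. Each cause was not tested.

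With the replicate number as a block, limma called 0 regions for TGF-β, as it did under the other alternatives and without each of the EpH4 libraries. Deviations of same-numbered libraries had a correlation of 0.012 over regions, so the numbers were not taken to pair the samples. The unknown read depth limits what a missing peak can show.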

Other observations

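EpH4-only regions were unevenly spread over the chromosomes. Chromosome 13 held 31 and chromosome 5 held 33 of the 280. Per 100 regions called in all 4 EpH4 libraries, these were 10.0 on chromosome 13 and 6.42 on chromosome 5, against 2.14 on chromosome 1, 2.10 on chromosome 11 and 1.72 on chromosome 7. By this measure chromosome 5 was not set apart, since chromosomes 15, 2 and 16 had 6.07, 6.02 and 5.91. Chromosome X had 10.0, from 3 members. Chromosome 13 took 5.26 to 5.66% of the peaks of an EpH4 library and 4.33 to 4.88% of those of an EpRas library. For chromosome 5 these ranges were 7.11 to 7.71% and 5.40 to 5.76%, and for chromosome 7 they were 4.28 to 4.94% and 5.50 to 5.93%. The chromosomes were singled out after their values were seen, the number of copies of each chromosome in the lines was not measured here, and its part in these counts was not tested.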
